A study of Homo sapiens with 4 samples.

Results

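The lysosome of a lymphoma cell line was examined at the level of mRNA through 39 genes: 16 acid hydrolases, of which 8 are cathepsins, 2 genes for a hydrolase cofactor and a lipid carrier, 4 lysosomal membrane proteins, 14 subunits of the vacuolar proton pump (V-ATPase), and the 3 transcription factors TFEB, TFE3 and MITF. They were picked by gene symbol from a deposited table of 61267 genes, and all 39 were found there. The cells were SU-DHL-2, a line from a diffuse large B-cell lymphoma, of wild-type genotype per the labels. In 2 libraries the cells had received Spautin-1 at 10 µM for 36 h, and in 2 libraries they had received the solvent alone (vehicle). Spautin-1 is a small molecule described as blocking the deubiquitinases USP10 and USP13, and it is known as an inhibitor of autophagy, the route that delivers cytoplasm to the lysosome. All values come from 1 cell line, and since the labels do not state that the libraries of a group are separate cultures, every p-value reflects the spread between 2 libraries of a kind, which may be technical.

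Lysosomes break down proteins, lipids, glycans and nucleic acids with hydrolases that work in acid. The V-ATPase makes that acid: its membrane sector V0 carries protons inward, and its cytosolic sector V1 hydrolyses ATP to drive the rotation. TFEB, TFE3 and MITF belong to the MiT/TFE family of transcription factors, which enter the nucleus when the kinase mTORC1 is low in activity at the lysosomal surface, and bind an E-box sequence, CACGTG with preferred flanks, in the promoters of many lysosomal genes. B cells use lysosomal and endosomal proteases to process antigen for presentation on MHC class II.

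Total counts were 38325536 and 34893634 in the Spautin-1 libraries and 34115420 and 38362526 in the vehicle libraries. The share of counts from mitochondrial transcripts was 8.34% and 7.63% in Spautin-1 and 5.25% and 4.94% in vehicle; the part of this difference in the results was not tested. Of 18368 genes tested, 22.0% passed the edgeR quasi-likelihood test at a Benjamini-Hochberg adjusted p under 0.05, 11.5% being higher and 10.5% lower. All 8 listed B-cell markers were detected, and 4 of them rose, among them the B-cell antigen gene MS4A1. In CPM, the count scaled to the size of its library, the 8 summed to 1201 and 1176 in Spautin-1 and 863 and 769 in vehicle, and MS4A1 had 629 and 608 in Spautin-1 and 442 and 379 in vehicle. The 6 markers of macrophages and monocytes, cells rich in lysosomes, summed to 2.35 and 2.71 CPM in Spautin-1 and 2.62 and 2.64 CPM in vehicle. MARCO was the highest of them, at 1.55 and 1.62 CPM in Spautin-1 and 0.806 and 1.35 CPM in vehicle. CD14 lay in the other direction, at 0.0533 and 0.0577 CPM in Spautin-1 and 0.115 and 0.207 CPM in vehicle. Of the 6, 3 passed the filter on low counts, and 0 passed the test. The 4 markers each of T cells, fibroblasts and endothelium summed to between 0.345 and 2.92 CPM in any library.

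Of the 39 genes, 38 passed the filter on low counts, MITF being the exception, and 5 of these 38 passed the test, 13.2% against 22.0% of all genes tested and 26.3% of those with a mean of at least 1 CPM. Cathepsin H (CTSH), the heparan sulfate sulfatase SGSH and the V1 subunit ATP6V1F rose. The V0 subunit ATP6V0A1 and the membrane protein CLN3 fell. The changes were modest, with log2 fold changes of Spautin-1 over vehicle from -0.81 to 0.94 and a median of -0.02, beside a median of -0.01 over all genes tested. A change of less than 1.25-fold in either direction was seen for 26 of the 38, and 2, SGSH and ATP6V0A1, changed by more than 1.5-fold. The Spautin-1 and vehicle libraries did not overlap for 21 of the 38, or 55.3%, against 61.4% of all genes tested. With 2 libraries a group an exact permutation test cannot go below p = 0.333, so calls rest on the model fitted across all genes. More than 10% of the exonic bases are shared with a gene on the same strand for 5 of the 39 genes (CTSD, TPP1, NAGLU, CLN3 and ATP6V0C), and with a gene on the opposite strand for 5 (CTSA, CTSD, CTSZ, HEXA and ATP6V1F), so their counts may hold reads of a neighbour or miss reads of their own.

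**Figure D1:**
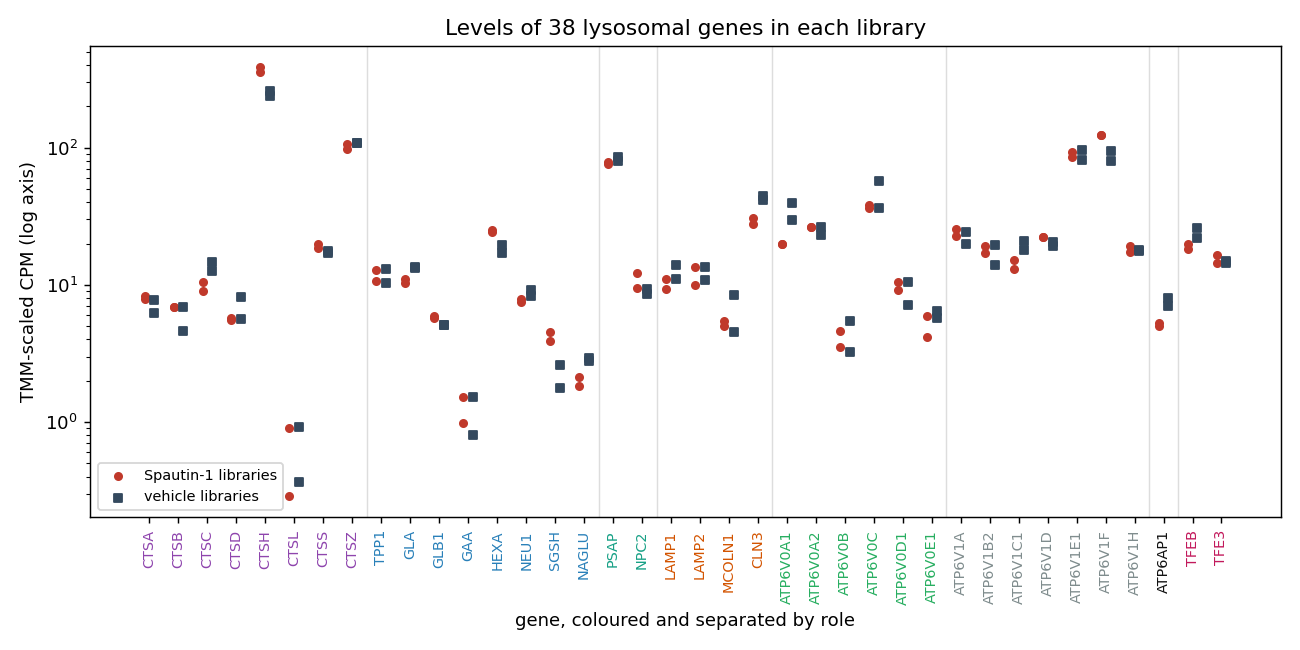
TMM-scaled CPM, on a log axis, of the 38 genes that passed the filter on low counts, with each library as a point (Spautin-1 left, vehicle right of each tick) and genes grouped by role. CTSH stands highest at 386 and 355 CPM in Spautin-1 and 239 and 259 CPM in vehicle, and for most genes the 2 groups lie close together.

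Among the 8 cathepsins, the proteases of the lysosome, CTSH was the only one that passed the test. Cathepsin H is an aminopeptidase of the papain family. CTSH (chromosome 15, 78921058 to 78949574, minus strand, GRCh38) had 386 and 355 CPM in Spautin-1, against 239 and 259 CPM in vehicle, and the groups were well apart. It rose 1.49-fold (log2 fold change 0.57 ± 0.10, ± SE; edgeR adjusted p = 0.00167) and stayed called under all 14 alternative settings that keep the threshold of 0.05, with log2 fold changes from 0.50 to 0.64. No exon of CTSH overlaps another annotated gene. CTSH supplied 71.1% and 70.6% of the summed cathepsin CPM in Spautin-1 and 60.5% and 61.4% in vehicle. The summed cathepsin level was 542 and 503 CPM in Spautin-1 and 395 and 421 CPM in vehicle, but without CTSH it was 157 and 148 CPM in Spautin-1 and 156 and 163 CPM in vehicle, which overlap.

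The other 7 cathepsins did not pass. CTSC, the dipeptidyl peptidase that activates granule proteases, came nearest, with 9.01 and 10.5 CPM in Spautin-1 and 12.6 and 14.8 CPM in vehicle (log2 fold change -0.49 ± 0.17, edgeR adjusted p = 0.062). Its vehicle libraries both lay above its Spautin-1 libraries, and it was called lower without vehicle replicate 1 (-0.60, adjusted p = 0.00507) and in 5 other settings. CTSZ, a carboxypeptidase and the second most abundant cathepsin by RPKM (CPM per kilobase of exonic length), was level at 107 and 98.2 CPM in Spautin-1 and 108 and 108 CPM in vehicle. Both of its Spautin-1 libraries lay at or just below its vehicle libraries (log2 fold change -0.08 ± 0.11).

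CTSS, the protease known for trimming the invariant chain in antigen-presenting cells, had 19.7 and 18.7 CPM in Spautin-1 and 17.6 and 17 CPM in vehicle (log2 fold change 0.15 ± 0.15). CTSA, the protective protein of sialidase and galactosidase, had 8.34 and 7.91 CPM in Spautin-1 and 6.19 and 7.69 CPM in vehicle (0.23 ± 0.20). For both genes the Spautin-1 libraries were the higher ones, by less than the test could call. CTSB, a major cysteine cathepsin, had 6.9 and 6.84 CPM in Spautin-1 and 4.64 and 6.86 CPM in vehicle (0.26 ± 0.23), and the aspartic protease CTSD had 5.52 and 5.72 CPM in Spautin-1 and 5.64 and 8.2 CPM in vehicle (-0.30 ± 0.23). In these 2 genes the groups overlapped and vehicle replicate 2 exceeded vehicle replicate 1. CTSL, which in many other cells is abundant, was near the limit of detection at 0.906 and 0.289 CPM in Spautin-1 and 0.921 and 0.362 CPM in vehicle, so a difference was not detectable at this depth (-0.09 ± 0.70).

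The 8 other hydrolases remove sugars, sulfates or tripeptides. SGSH (chromosome 17, 80206716 to 80220923, minus strand) cuts sulfate from heparan sulfate. It had 4.5 and 3.87 CPM in Spautin-1 and 1.76 and 2.59 CPM in vehicle, resting on 169 and 134 counts in Spautin-1 and 61 and 100 counts in vehicle. It rose 1.92-fold (log2 fold change 0.94 ± 0.28, edgeR adjusted p = 0.0327). The size and the call depended on single libraries: SGSH was at 0.69 (adjusted p = 0.0828) without vehicle replicate 1, 0.82 (0.151) without Spautin-1 replicate 1 and 1.05 (0.0532) without Spautin-1 replicate 2, where these calls were lost, and at 1.25 without vehicle replicate 2. NAGLU, the glucosaminidase that acts on the same heparan sulfate chains, pointed the other way without passing, at 2.13 and 1.82 CPM in Spautin-1 and 2.94 and 2.8 CPM in vehicle (-0.53 ± 0.29, edgeR adjusted p = 0.219).

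HEXA encodes the alpha chain of beta-hexosaminidase, which degrades GM2 ganglioside. Its libraries stood at 24.3 and 24.9 CPM in Spautin-1 and 19.4 and 17.2 CPM in vehicle, without overlap, and its log2 fold change of 0.43 ± 0.14 missed the threshold narrowly (edgeR adjusted p = 0.0502). HEXA passed without vehicle replicate 1 (0.52, adjusted p = 0.00248) and in 3 other settings.

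The remaining 5 hydrolases did not pass. The alpha-galactosidase GLA, whose loss causes Fabry disease, had 11 and 10.3 CPM in Spautin-1 and 13.2 and 13.5 CPM in vehicle (log2 fold change -0.33 ± 0.16, edgeR adjusted p = 0.169). The beta-galactosidase GLB1 had 5.73 and 5.95 CPM in Spautin-1 and 5.1 and 5.1 CPM in vehicle (0.20 ± 0.21). The sialidase NEU1, which trims sialic acid from glycoproteins, had 7.52 and 7.85 CPM in Spautin-1 and 8.29 and 9.16 CPM in vehicle (-0.18 ± 0.18). In each of these 3 genes the groups did not overlap, and none passed the test. The tripeptidyl peptidase TPP1 had 12.8 and 10.6 CPM in Spautin-1 and 13 and 10.3 CPM in vehicle (0.01 ± 0.18). GAA, the acid alpha-glucosidase that degrades glycogen, was low at 1.52 and 0.981 CPM in Spautin-1 and 0.806 and 1.53 CPM in vehicle (0.10 ± 0.46). The groups overlapped for TPP1 and GAA.

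PSAP is cut into the saposins, small cofactors that present lipids to hydrolases. It was at 78.8 and 75.5 CPM in Spautin-1 and 85.1 and 80.1 CPM in vehicle, a log2 fold change of -0.10 ± 0.11 that did not pass (edgeR adjusted p = 0.58). NPC2, which hands cholesterol to the membrane protein NPC1, had 12.2 and 9.44 CPM in Spautin-1 and 8.64 and 9.29 CPM in vehicle (0.27 ± 0.19, edgeR adjusted p = 0.337), and did not pass either.

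All 4 membrane proteins had negative log2 fold changes, as did 9324 of the 18368 genes tested, and CLN3 passed the test. Of 26 tested genes for other lysosomal membrane proteins and enzyme sorting, 11 were negative and 15 positive, so that wider list had no shared direction. CLN3, the protein lost in juvenile neuronal ceroid lipofuscinosis (chromosome 16, 28474111 to 28495575, minus strand), had 30.8 and 28 CPM in Spautin-1 and 44.4 and 41.6 CPM in vehicle. It fell 1.46-fold (log2 fold change -0.55 ± 0.13, edgeR adjusted p = 0.00974), and the call was lost without Spautin-1 replicate 1 (-0.63, adjusted p = 0.0518) or Spautin-1 replicate 2 (-0.47, 0.191). The locus limits this value: 25.3% of the exonic bases of CLN3 are shared with a neighbour on its own strand, and 5.84% with APOBR on the opposite strand, which was itself called lower (-0.70 ± 0.12), so reads of these genes may not be told apart.

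LAMP1 and LAMP2 are the most abundant glycoproteins of the lysosomal membrane in most cells. LAMP1 had 9.28 and 11.1 CPM in Spautin-1 and 11.1 and 13.9 CPM in vehicle (-0.30 ± 0.18, edgeR adjusted p = 0.277), and LAMP2 had 10 and 13.6 CPM in Spautin-1 and 13.6 and 10.8 CPM in vehicle (-0.05 ± 0.19), with overlapping groups. MCOLN1, the calcium channel TRPML1, showed how far the vehicle libraries could differ: it had 5.04 and 5.48 CPM in Spautin-1 and 4.52 and 8.44 CPM in vehicle (-0.30 ± 0.27, edgeR adjusted p = 0.472). Without vehicle replicate 1 MCOLN1 was called lower (-0.68, adjusted p = 0.014) and without vehicle replicate 2 it was at 0.22 (0.607). LAMP1 was also called lower without vehicle replicate 1 (-0.46, adjusted p = 0.0448).

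**Figure D2:**
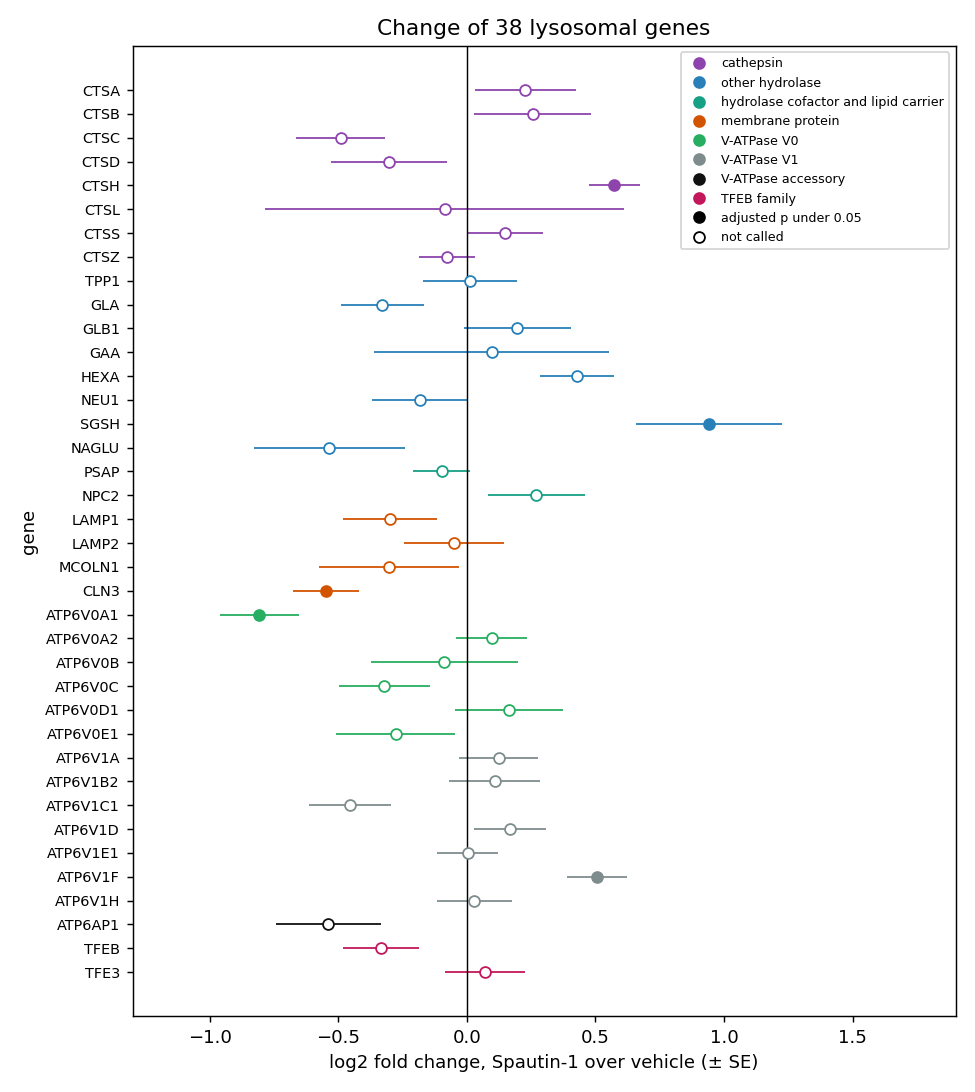
Log2 fold change of Spautin-1 over vehicle, with its SE as the bar, for the 38 genes tested, coloured by role, filled where the edgeR adjusted p was under 0.05. The 5 filled points are CTSH, SGSH and ATP6V1F above 0 and CLN3 and ATP6V0A1 below 0.

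The sequence by which MiT/TFE factors bind DNA was looked for in the promoters of the 39 genes. RefSeq promoters (GRCh38.p14, from 250 bases before to 50 bases after each start) were matched by symbol for 27 of the 39 genes, as 35 sequences, since some genes have more than 1 start. The E-box CACGTG, which reads the same on both strands, was found in 10 of the 35, or 28.6%, against 7.26% of all 35116 promoters of that length. The longer TCACGTGA, which contains it and also reads the same on both strands, was in 7 of the 35, or 20.0%, against 0.98% of all. By gene, 9 of 27 had CACGTG: CTSA, CTSD, GAA, NEU1, LAMP1, MCOLN1, CLN3, ATP6V0B and ATP6V0D1. A match is a description of letters in this window, not a bound site.

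The promoter sequences of 3 membrane protein genes with the E-box and of 3 called genes without it are printed 5′ to 3′ on the strand of the gene, with each CACGTG in capitals. The 3 membrane protein genes are CLN3 (chr16:28492033-28492332, minus strand), LAMP1 (chr13:113296989-113297288, plus strand) and MCOLN1 (chr19:7522374-7522673, plus strand), chosen because the membrane proteins with an entry all carry TCACGTGA while differing in their calls.
CLN3: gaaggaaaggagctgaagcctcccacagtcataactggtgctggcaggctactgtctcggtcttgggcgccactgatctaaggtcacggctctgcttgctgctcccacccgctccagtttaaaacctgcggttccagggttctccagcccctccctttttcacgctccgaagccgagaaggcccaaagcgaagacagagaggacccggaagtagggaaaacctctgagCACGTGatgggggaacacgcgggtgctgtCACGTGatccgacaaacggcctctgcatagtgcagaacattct
LAMP1: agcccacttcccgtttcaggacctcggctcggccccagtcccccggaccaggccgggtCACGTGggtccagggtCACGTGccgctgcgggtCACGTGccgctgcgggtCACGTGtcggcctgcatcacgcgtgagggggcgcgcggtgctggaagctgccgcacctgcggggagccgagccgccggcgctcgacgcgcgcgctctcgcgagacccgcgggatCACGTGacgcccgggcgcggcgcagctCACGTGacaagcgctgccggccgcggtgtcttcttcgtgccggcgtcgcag
MCOLN1: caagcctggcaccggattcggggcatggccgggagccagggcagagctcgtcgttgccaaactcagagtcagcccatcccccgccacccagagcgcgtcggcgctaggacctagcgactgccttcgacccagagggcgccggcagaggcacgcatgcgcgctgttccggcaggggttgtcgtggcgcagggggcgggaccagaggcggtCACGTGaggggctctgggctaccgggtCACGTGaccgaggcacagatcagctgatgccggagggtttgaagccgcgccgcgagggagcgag
LAMP1 holds 6 copies of CACGTG in 300 bases, and CLN3 and MCOLN1 hold 2 each (those of MCOLN1 begin 41 and 14 bases before the start). The called genes ATP6V0A1 (chr17:42458628-42458927, plus strand), ATP6V1F (chr7:128862606-128862905, plus strand) and CTSH (chr15:78944997-78945296, minus strand) have no CACGTG in this window.
ATP6V0A1: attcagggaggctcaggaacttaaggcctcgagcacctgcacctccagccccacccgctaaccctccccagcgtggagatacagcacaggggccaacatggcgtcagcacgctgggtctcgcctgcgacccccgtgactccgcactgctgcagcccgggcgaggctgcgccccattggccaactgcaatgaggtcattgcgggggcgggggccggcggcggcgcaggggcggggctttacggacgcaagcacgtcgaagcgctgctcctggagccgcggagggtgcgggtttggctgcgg
ATP6V1F: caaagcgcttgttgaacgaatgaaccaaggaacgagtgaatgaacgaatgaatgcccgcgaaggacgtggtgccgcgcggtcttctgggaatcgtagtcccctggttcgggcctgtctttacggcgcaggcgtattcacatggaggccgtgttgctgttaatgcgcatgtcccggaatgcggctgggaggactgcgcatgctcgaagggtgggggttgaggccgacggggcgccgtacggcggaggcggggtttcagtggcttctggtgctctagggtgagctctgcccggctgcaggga
CTSH: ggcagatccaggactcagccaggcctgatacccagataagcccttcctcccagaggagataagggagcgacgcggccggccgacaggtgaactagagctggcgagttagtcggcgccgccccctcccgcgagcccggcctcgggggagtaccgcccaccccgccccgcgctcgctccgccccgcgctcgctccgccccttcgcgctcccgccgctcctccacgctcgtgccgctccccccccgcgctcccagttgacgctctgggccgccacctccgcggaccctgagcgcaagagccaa
Of the 9 genes with the E-box, CLN3 was called lower and none higher, with a median log2 fold change of -0.18. Of the 17 tested genes without it, CTSH and ATP6V1F were called higher and ATP6V0A1 lower, with a median of 0.00. Among all tested genes with a promoter entry, the medians were -0.05 with CACGTG and 0.01 without, and 27.5% and 23.6% of the genes were called.

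Of the 14 V-ATPase genes, 1 rose and 1 fell, 14.3% against 22.0% of all genes tested, and the median log2 fold change was 0.02, against 0.05 for the 16 hydrolases. The libraries of the groups did not overlap for 5 of the 14, or 35.7%, against 61.4% of all genes tested. In the V0 sector, ATP6V0A1 encodes the a1 isoform of the subunit that anchors the pump and lines the proton path. ATP6V0A1 (chromosome 17, 42458844 to 42522582, plus strand) had 19.8 and 19.8 CPM in Spautin-1 and 39.4 and 29.9 CPM in vehicle, so both Spautin-1 libraries lay below both vehicle libraries although the vehicle libraries differed. It fell 1.75-fold (log2 fold change -0.81 ± 0.15, edgeR adjusted p = 0.00326) and stayed called under all 14 alternatives, from -0.99 without vehicle replicate 2 to -0.60 without vehicle replicate 1.

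The a subunit has other isoforms, and neither of the 2 others that were well detected passed the test. ATP6V0A2, the a2 isoform known from the Golgi and endosomes, had 26.3 and 26.6 CPM in Spautin-1 and 26.3 and 23.2 CPM in vehicle (0.10 ± 0.14, edgeR adjusted p = 0.667). TCIRG1, the a3 isoform known from osteoclasts, was named after its values were seen, and had 14.9 and 13.5 CPM in Spautin-1 and 15.4 and 20.1 CPM in vehicle (-0.32 ± 0.17, adjusted p = 0.199 in edgeR). TCIRG1 was called lower without vehicle replicate 1 (-0.50, adjusted p = 0.00695). Per exonic length, ATP6V0A1 and ATP6V0A2 stood at 1.53 and 1.53 RPKM against 1.53 and 1.55 RPKM in the Spautin-1 libraries, while in vehicle ATP6V0A1 had 3.04 and 2.31 RPKM and ATP6V0A2 1.53 and 1.35 RPKM. The log2 ratio of ATP6V0A1 to ATP6V0A2 was -0.01 ± 0.01 in Spautin-1 and 0.89 ± 0.15 in vehicle (mean ± SD, n = 2 each), without overlap between the groups. The log2 ratio of ATP6V0A1 to TCIRG1 was less clearly apart, at -1.08 and -0.94 in Spautin-1 and -0.14 and -0.92 in vehicle. There, vehicle replicate 2 lay close to the Spautin-1 libraries. ATP6V0A1 supplied 24.3% and 25.4% of the summed RPKM of the 4 a isoforms in Spautin-1 and 38.4% and 28.8% in vehicle, and ATP6V0A4, the kidney isoform, was at or near 0 in every library.

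The other 4 genes of V0 did not pass. ATP6V0C, the proteolipid of the rotating ring, had 36.5 and 38 CPM in Spautin-1 and 36.2 and 56.8 CPM in vehicle (-0.32 ± 0.18, edgeR adjusted p = 0.227), so vehicle replicate 2 alone stood apart. It was called lower without vehicle replicate 1 (-0.61, adjusted p = 6.6e-07) and was at 0.04 (0.851) without vehicle replicate 2. Other genes on the same strand share 76.3% of the exonic bases of ATP6V0C, so its level is uncertain. ATP6V0B, another ring proteolipid, had 4.64 and 3.52 CPM in Spautin-1 and 3.22 and 5.43 CPM in vehicle (-0.09 ± 0.28). ATP6V0D1, which couples the ring to the central stalk, had 9.17 and 10.5 CPM in Spautin-1 and 7.08 and 10.5 CPM in vehicle (0.16 ± 0.21), and the small membrane subunit ATP6V0E1 had 4.16 and 5.89 CPM in Spautin-1 and 6.39 and 5.77 CPM in vehicle (-0.28 ± 0.23). The groups overlapped for all 3. ATP6AP1, an accessory protein of pump assembly, had 5.28 and 4.99 CPM in Spautin-1 and 7.98 and 6.96 CPM in vehicle, a log2 fold change of -0.54 ± 0.20 that did not pass (edgeR adjusted p = 0.0771) but was called without vehicle replicate 2 (-0.63, 0.0297).

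In the V1 sector, ATP6V1F, a subunit of the central stalk, rose 1.42-fold. ATP6V1F (chromosome 7, 128862856 to 128865847, plus strand) had 124 and 124 CPM in Spautin-1 and 80.1 and 94.8 CPM in vehicle (log2 fold change 0.51 ± 0.12, edgeR adjusted p = 0.009). The call was lost without Spautin-1 replicate 1 (0.50, adjusted p = 0.0775) or Spautin-1 replicate 2 (0.51, 0.0841). KCP, on the opposite strand, covers 20.6% of the exonic bases of ATP6V1F and had 4727 and 4421 counts in Spautin-1 and 2985 and 3867 in vehicle, beside 4654 and 4308 counts for ATP6V1F in Spautin-1 and 2783 and 3662 in vehicle. The 2 genes thus had nearly the same counts in every library, with ratios of KCP to ATP6V1F from 1.02 to 1.07, and their reads cannot be told apart here. ATP6V1F also led the V-ATPase sum, with 29.6% and 29.9% of it in Spautin-1 and 20.1% and 23.1% in vehicle. The full sum was 419 and 416 CPM in Spautin-1 and 399 and 410 CPM in vehicle. Without ATP6V1F the sum over the 13 other V-ATPase genes was 295 and 292 CPM in Spautin-1 and 319 and 316 CPM in vehicle. That sum holds ATP6V0A1, at 19.8 and 19.8 CPM in Spautin-1 and 39.4 and 29.9 CPM in vehicle. It also holds ATP6V0C, at 36.5 and 38 CPM in Spautin-1 and 36.2 and 56.8 CPM in vehicle, whose level is uncertain. Log2 fold changes were above 0 for 8 of the 14 V-ATPase genes and below 0 for 6.

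ATP6V1C1 encodes the C subunit, which clamps V1 onto V0 and is released when the pump comes apart. It had 13.1 and 15.2 CPM in Spautin-1 and 20.9 and 17.9 CPM in vehicle, and its log2 fold change of -0.45 ± 0.16 did not pass (edgeR adjusted p = 0.0614). ATP6V1C1 was called lower without vehicle replicate 2 (-0.56, adjusted p = 0.00235) and in 5 other settings. Its paralogue ATP6V1C2 lay in the opposite direction, with 36.9 and 41.5 CPM in Spautin-1 and 30.5 and 29.2 CPM in vehicle, and rose 1.31-fold (0.39 ± 0.13, edgeR adjusted p = 0.0472). The log2 ratio of ATP6V1C1 to ATP6V1C2, per exonic length, was -2.21 ± 0.04 in Spautin-1 and -1.37 ± 0.11 in vehicle (mean ± SD, n = 2 each), without overlap. The call of ATP6V1C2 was lost without Spautin-1 replicate 1 (0.47, adjusted p = 0.174) or Spautin-1 replicate 2 (0.31, 0.428) and in 4 other settings, and 29.8% of its exonic bases lie opposite other genes, among them PDIA6, a chaperone gene with 20329 and 17899 counts in Spautin-1 and 15808 and 16870 counts in vehicle, so its own level is uncertain.

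The remaining V1 subunits were close to level. ATP6V1A and ATP6V1B2 form the ATP-hydrolysing head. ATP6V1A had 25.7 and 22.6 CPM in Spautin-1 and 24.4 and 19.9 CPM in vehicle (log2 fold change 0.12 ± 0.15), and ATP6V1B2 had 17 and 19.2 CPM in Spautin-1 and 14.1 and 19.5 CPM in vehicle (0.11 ± 0.18). ATP6V1E1, of the peripheral stalk, had 92.6 and 85.7 CPM in Spautin-1 and 96.2 and 81.8 CPM in vehicle, a log2 fold change of 0.00 ± 0.12. All 3 had overlapping groups. ATP6V1D, of the central stalk, had 22.2 and 22.4 CPM in Spautin-1 and 19.1 and 20.5 CPM in vehicle (0.17 ± 0.14), and ATP6V1H, a regulator of the sector, had 19.1 and 17.4 CPM in Spautin-1 and 18.1 and 17.7 CPM in vehicle (0.03 ± 0.15).

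**Figure D3:**
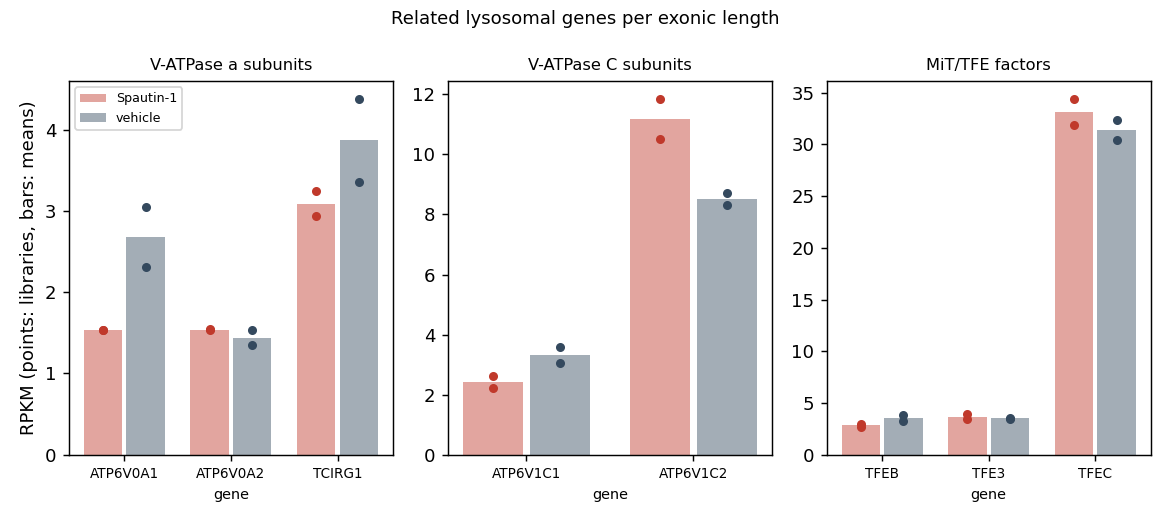
RPKM (CPM per kilobase of exonic length) of related genes, with libraries as points and group means as bars, Spautin-1 left of vehicle. ATP6V0A1 lies close to ATP6V0A2, near 1.53 RPKM, in Spautin-1 and above it in vehicle, and TFEC stands far above TFEB and TFE3. ATP6V1C1 is lower and ATP6V1C2 higher in Spautin-1 than in vehicle, but the level of ATP6V1C2 is uncertain because of shared bases. Differences between genes in RPKM also depend on their annotated exonic lengths.

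Among the transcription factors, no mRNA of the TFEB family passed the test. TFEB (chromosome 6, 41683978 to 41736259, minus strand) had 18.3 and 19.7 CPM in Spautin-1 and 21.8 and 26 CPM in vehicle (log2 fold change -0.33 ± 0.15, edgeR adjusted p = 0.132). The groups did not overlap, and TFEB was called lower without vehicle replicate 1 (-0.46, adjusted p = 0.00663), while without vehicle replicate 2 it was at -0.20 (0.356). TFE3 (chromosome X, 49028726 to 49043410, minus strand) had 14.5 and 16.5 CPM in Spautin-1 and 15 and 14.4 CPM in vehicle (0.07 ± 0.16, edgeR adjusted p = 0.792), with overlapping groups. MITF (chromosome 3, 69739456 to 69968336, plus strand), the melanocyte factor of the family, had 0 and 0 counts in Spautin-1 and 4 and 0 counts in vehicle and was not tested.

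TFEC, the remaining member of the MiT/TFE family, was on the list of regulators and is named here after its values were seen. TFEC (chromosome 7, 115935148 to 116159896, minus strand) had 297 and 276 CPM in Spautin-1 and 280 and 263 CPM in vehicle, with overlapping groups and a log2 fold change of 0.08 ± 0.10 (edgeR adjusted p = 0.617). Per exonic length it was at 34.4 and 31.9 RPKM in Spautin-1 and 32.4 and 30.4 RPKM in vehicle, against 2.72 and 2.93 RPKM for TFEB in Spautin-1 and 3.25 and 3.87 RPKM for TFEB in vehicle. TFEC thus gave most of the family's mRNA per length in every library. No exon of TFEC overlaps another annotated gene.

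In order of RPKM in vehicle, 5 of the 39 genes were above 10, 26 lay from 1 to 10 and 8 were below 1. ATP6V1F led with 163 RPKM in Spautin-1 and 115 RPKM in vehicle, followed in vehicle by ATP6V0C at 32.8, ATP6V1E1 at 28.3, PSAP at 26.5 and CTSH at 18.1 RPKM. The levels of ATP6V1F and ATP6V0C, and so their places in this order, are uncertain because of the bases they share with neighbours. In Spautin-1, ATP6V1E1 stood at 28.4, CTSH at 26.9, ATP6V0C at 26.3 and PSAP at 24.8 RPKM, so these 4 neighbours in the order lay close together. The lengths are those of all annotated exons of a gene, up to 24849 bases for CTSC, so RPKM is low for genes with many long annotated transcripts.

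The rest of the lysosomal genes were followed in 4 lists, whose shares of called genes stand beside 22.0% of all genes tested and 26.3% of those with a mean of at least 1 CPM. Of 31 tested genes for other hydrolases and cofactors, 6 rose and 1 fell, 22.6% of the list, with a median log2 fold change of 0.06. PLD3, one of those that rose, shares 10.7% of its exonic bases with a gene on the same strand and 10.6% with genes on the opposite strand. MANBA, the beta-mannosidase of glycoprotein breakdown, had 58.1 and 57.6 CPM in Spautin-1 and 27.1 and 24 CPM in vehicle and rose 2.26-fold (edgeR adjusted p = 7.42e-05). ASAH1, the acid ceramidase, had 26.7 and 28.2 CPM in Spautin-1 and 11.4 and 11.9 CPM in vehicle and rose 2.35-fold (edgeR adjusted p = 0.000141). Both stayed called under all 14 alternatives and changed by more than any of the 38 genes described above. PLA2G15, a lysosomal phospholipase, was low, at 0.533 and 0.318 CPM in Spautin-1 and 1.15 and 1.92 CPM in vehicle, and fell 3.58-fold (edgeR adjusted p = 0.0237), a call lost without vehicle replicate 2 (-1.42, adjusted p = 0.167) or Spautin-1 replicate 2 (-1.52, 0.113). Other increases, named after their values were seen, included the cathepsin CTSO (log2 fold change 1.34 ± 0.26), the carboxypeptidase SCPEP1 (0.84 ± 0.19, called except without Spautin-1 replicate 1, where it was 0.80 at adjusted p = 0.0524) and the phospholipase D family exonuclease PLD3 (1.15 ± 0.22).

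Of 26 tested genes for other lysosomal membrane proteins and enzyme sorting, 3 rose and 3 fell, 23.1% of the list, with a median of 0.09. SCARB2 (LIMP-2), which carries glucocerebrosidase to the lysosome, had 22.4 and 22.8 CPM in Spautin-1 and 13.4 and 12.1 CPM in vehicle and rose 1.77-fold (edgeR adjusted p = 0.00229) under all 14 alternatives. The ion channel TPCN1 rose 1.55-fold, with 16.5 and 16.7 CPM in Spautin-1 and 9.88 and 11.6 CPM in vehicle. The amino acid exporter SLC36A1 fell 2.25-fold, with 1.23 and 1.76 CPM in Spautin-1 and 3.57 and 3.16 CPM in vehicle. IGF2R, a mannose 6-phosphate receptor that sorts new hydrolases to lysosomes, had 72.3 and 68 CPM in Spautin-1 and 91.8 and 93.1 CPM in vehicle and fell 1.32-fold. The other mannose 6-phosphate receptor, M6PR, which shares 30.9% of its exonic bases with PHC1 on the opposite strand, fell 1.33-fold. The cholesterol exporter NPC1 rose 1.58-fold, and M6PR and NPC1 were both named after their values were seen. The edgeR adjusted p-values of these 5 ran from 0.0163 to 0.0349. The calls were lost without Spautin-1 replicate 1 for TPCN1 (0.63, adjusted p = 0.0949), SLC36A1 (-0.94, 0.114), IGF2R (-0.46, 0.143), M6PR (-0.47, 0.165) and NPC1 (0.70, 0.0972), and without Spautin-1 replicate 2 for TPCN1 (0.63, 0.114), IGF2R (-0.34, 0.315), M6PR (-0.35, 0.344) and NPC1 (0.63, 0.167).

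Of 14 tested genes for other V-ATPase subunits and assembly factors, ATP6V1C2 and DMXL1 rose and TMEM199 fell, 21.4% of the list, with a median of 0.13. TMEM199 shares 13.95% of its exonic bases with genes on the same strand and 28.49% with genes on the opposite strand. The level of TMEM199 is therefore uncertain. DMXL1, a rabconnectin that promotes assembly of V1 with V0, had 41.5 and 44.9 CPM in Spautin-1 and 30.7 and 23.4 CPM in vehicle and rose 1.6-fold (edgeR adjusted p = 0.00734), a call lost without Spautin-1 replicate 2 (0.63, adjusted p = 0.0643). TMEM199, an assembly factor of V0 in the endoplasmic reticulum, had 15.6 and 15.8 CPM in Spautin-1 and 21.1 and 23.3 CPM in vehicle and fell 1.42-fold (edgeR adjusted p = 0.0282), a call lost without Spautin-1 replicate 1 (-0.50, adjusted p = 0.196) or Spautin-1 replicate 2 (-0.50, 0.211).

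Of 26 tested genes for nutrient sensing at the lysosome and the control of TFEB, 6 rose and 2 fell, 30.8% of the list, with a median of 0.03. Among those that rose, RRAGC shares 23.1% and FLCN 11.9% of the exonic bases with a gene on the same strand. FNIP1, the partner of folliculin in a complex that acts on the Rag GTPases RRAGC and RRAGD, had 16.7 and 17.4 CPM in Spautin-1 and 10.7 and 9.16 CPM in vehicle and rose 1.72-fold (edgeR adjusted p = 0.00523) under all 14 alternatives. RRAGC, a Rag GTPase that brings mTORC1 to the lysosome, had 30.6 and 27.4 CPM in Spautin-1 and 18.3 and 19.1 CPM in vehicle and rose 1.55-fold (edgeR adjusted p = 0.00734), but lost the call when Spautin-1 replicate 1 was left out (0.54, adjusted p = 0.13). RPTOR, the scaffold of mTORC1, had 16.9 and 16.5 CPM in Spautin-1 and 23.7 and 26.8 CPM in vehicle and fell 1.51-fold (edgeR adjusted p = 0.0119). XPO1, the exportin that carries TFEB out of the nucleus, had 111 and 101 CPM in Spautin-1 and 145 and 137 CPM in vehicle and fell 1.32-fold (edgeR adjusted p = 0.0186). Both calls were lost when Spautin-1 replicate 1 (RPTOR -0.62, adjusted p = 0.0813; XPO1 -0.48, 0.0887) or Spautin-1 replicate 2 (RPTOR -0.57, 0.137; XPO1 -0.33, 0.301) was left out.

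The 4 other increases on that list, named after their values were seen, were the Rag GTPases RRAGD (log2 fold change 1.01 ± 0.24) and RRAGB (0.80 ± 0.24), the folliculin gene FLCN (0.66 ± 0.22) and TSC1 (0.61 ± 0.14), part of the brake on mTORC1. RRAGD, a known TFEB target, had 9.65 and 10.6 CPM in Spautin-1 and 3.74 and 6.31 CPM in vehicle (edgeR adjusted p = 0.0111, not called at a threshold of 0.01). It stayed called under the 14 alternatives that keep the threshold of 0.05, with log2 fold changes from 0.68 without vehicle replicate 1 to 1.44 without vehicle replicate 2. FLCN passed narrowly (edgeR adjusted p = 0.0493), and its call was lost with RLE, upper quartile and library size scaling and with limma-voom. It rested on 1 library, with 19.8 and 11.7 CPM in Spautin-1 and 10.3 and 9.63 CPM in vehicle. FLCN was at 0.23, and not called, without Spautin-1 replicate 1. RRAGB (0.59, adjusted p = 0.285) and TSC1 (0.56, 0.0659) were also not called without that library.

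By list, between 21.4% and 30.8% of the tested genes were called, against 22.0% of all genes tested (11.5% higher and 10.5% lower). Over the 4 lists, 17 genes were called higher and 7 lower. In fits without Spautin-1 replicate 1, Spautin-1 replicate 2, vehicle replicate 1 and vehicle replicate 2, in that order, 9, 12, 18 and 22 were called higher and 1, 1, 11 and 10 lower, while over all genes 2476, 1847, 5766 and 5062 were called. For the 39 genes themselves the counts were 1, 1, 3 and 3 higher and 1, 1, 7 and 4 lower. In the same order, these fits tested 19594, 19725, 19669 and 19546 genes, and the calls over all genes also differed between them. A fit with 1 library in a group takes its spread from the other group. The vehicle libraries differed more from each other (median absolute log2 difference 0.22 over all genes tested) than the Spautin-1 libraries did from each other (0.15).

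**Figure D4:**
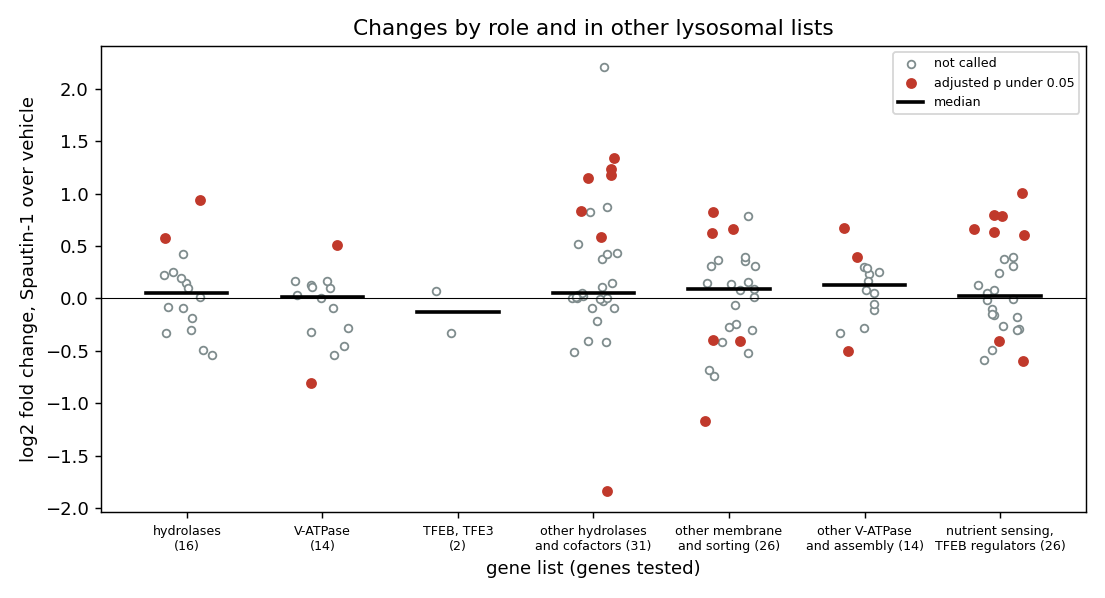
Log2 fold change of Spautin-1 over vehicle for the genes tested in 3 of the roles and in the 4 lists of other lysosomal genes, with called genes filled and the median of each list as a bar. The medians lie between -0.13 and 0.13, and the called genes of the other hydrolases lie mostly above 0.

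The vehicle libraries differed for some members more than for others. Vehicle replicate 2 exceeded vehicle replicate 1 by more than 1.4-fold for 8 of the 38 genes: CTSB, CTSD, GAA, SGSH, MCOLN1, ATP6V0B, ATP6V0C and ATP6V0D1. The opposite was seen for CTSL alone. Over the 38 genes the ratio of vehicle replicate 2 to vehicle replicate 1 had a Spearman's rho of 0.47 with the GC content of the longest transcript, and the log2 fold change had a weak rho of -0.13, of the opposite sign. These points share the same libraries and are a description of them. With an offset for GC content CTSH, SGSH, ATP6V1F, CLN3 and ATP6V0A1 were called as before, and CTSC (-0.61, edgeR adjusted p = 0.0213) and ATP6V1C1 (-0.55, 0.014) were called lower as well.

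**Figure D5:**
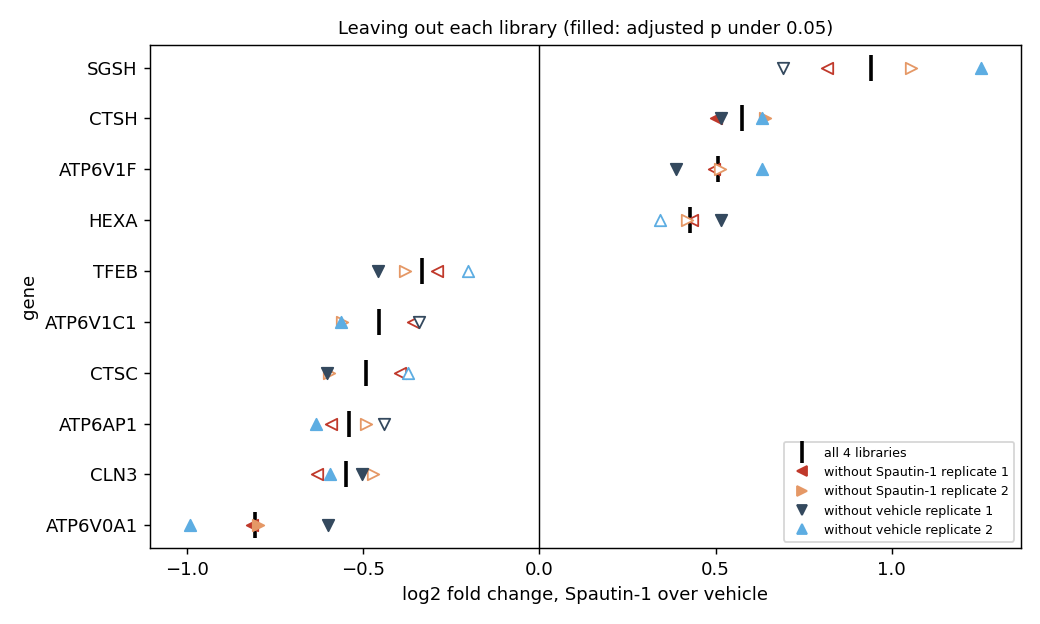
Log2 fold change of Spautin-1 over vehicle for the 10 genes with an unadjusted p under 0.05, with all 4 libraries (black bar) and with each library left out in turn (symbols, filled where the edgeR adjusted p was under 0.05). CTSH and ATP6V0A1 are filled in all 4 fits, and no gene crosses 0.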

How the data were processed

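The 4 libraries of SU-DHL-2 cells, 2 with Spautin-1 and 2 with vehicle, were stranded mRNA libraries made from TRIzol-extracted RNA, per the labels' protocols. The authors deposited raw counts for each gene, with coordinates and exonic length per the file headers. Trimmomatic 0.36, featureCounts (Subread 1.5.1), edgeR 3.12.1 and GRCh38 appear in the submitters' processing notes. Not given in the sources used here are the strand setting, the counting of overlapping genes, the annotation release and the aligner. Of counts from 1 to 100, between 70.9% and 72.5% were even numbers in each library; if both ends of read pairs were counted, a count stands for fewer fragments than its number and is less precise than its size, which was not tested.

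With edgeR 4.0.16, run in R 4.3.3, genes were kept by filterByExpr by group (minimum count 10, minimum total 15; 18368 genes), scaled by TMM (factors 0.98 and 0.994 for Spautin-1, 1.02 and 1.01 for vehicle) and tested with the quasi-likelihood F test on 2 residual degrees of freedom, p-values being adjusted over all genes tested by Benjamini-Hochberg. CPM is TMM-scaled, and RPKM is CPM per kilobase of exonic length. Alternatives were RLE, upper quartile and library size scaling, 2 other filters (none, and 1 CPM in 2 libraries), limma-voom 3.58.1, DESeq2 1.42.0, a replicate block, loess offsets (span 0.3) on exonic length and on transcript GC content from GENCODE 29 (available for 89.8% of genes tested), a threshold of 0.01, and leaving out each library. The procedure was tested on simulated data. The genes and lists were chosen with earlier results of these data known. Every member is named, and from each list of other lysosomal genes the 2 called genes with the smallest p in each direction; others are marked in the text. A gene of these lists is counted but not reported by name here.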

Additional observations from a re-analysis of the deposited data

How the results depend on the processing

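Of 531 refits of single members among the 39 genes, 503 kept their side of the threshold, 7 lost a call and 21 gained one, and no called value changed sign. CTSH and ATP6V0A1 were called in all 14 alternatives that keep the threshold of 0.05. Members called lower numbered 4, in place of 2, with library size scaling, 1 CPM in 2 libraries, the length offset and the GC offset; members called higher numbered 3 or 4 in the alternatives with all 4 libraries and a threshold of 0.05. At a threshold of 0.01, 1938 genes were called in all, in place of 4045, and 10 higher and 0 lower among the other lysosomal genes. The V-ATPase median, 0.02, was -0.00 (-0.00017) with upper quartile scaling, -0.024 with library size scaling, 0.0035 with 1 CPM in 2 libraries, -0.0037 with the length offset and -0.036 with the GC offset. Leaving out 1 library gave 1847 to 5766 genes called in all, 1 to 3 members higher and 1 to 7 lower, 9 to 22 other lysosomal genes higher and 1 to 11 lower, and medians of -0.14 to 0.19 for hydrolases, -0.10 to 0.068 for the V-ATPase and -0.20 to -0.071 for TFEB and TFE3; the lone library of a group was then assumed to vary like the other group. With the replicate block, 5100 genes were called, with 4 members higher and 4 lower; same-numbered libraries did not deviate together (correlation -0.0015), and the labels give no pairing. The cause of these shifts was not tested. Counting depth limits CTSL, GAA and MITF, which rest on few reads.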
